A study of Mus musculus with 2 samples.

Results

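The enzymes of heme synthesis and the first enzyme of heme breakdown were described as 9 genes, Alas1, Alas2, Alad, Uros, Urod, Cpox, Ppox, Fech and Hmox1, of 43346 mouse genes in the gene tables. The members were fixed by name from the textbook pathway, matched by symbol to a gene identifier, and all 9 were found in both libraries. The enzyme that acts between Alad and Uros is not analysed here. The study sequenced polyadenylated RNA of day 14 embryonic liver from the C57BL/6J strain, with no treatment and no altered allele named in the labels. It has 1 group, with 2 libraries labelled biological replicates 1 and 2, each from male and female littermates pooled together, so that no value belongs to a single embryo. The donor entry is the same for both and separate litters are not mentioned. The p-values therefore compare only these 2 libraries, whose differences may be technical. Those of the exact binomial test measure departure from counting error and not a spread over litters. Replicate 1 held 97174777 expected counts on mouse genes and replicate 2 held 149348514. An expected count is an estimated number of fragments per gene, and TPM is the authors' level per transcript length, scaled to a fixed total in each library.

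Heme is an iron-containing ring that is assembled partly in mitochondria and partly in the cytosol. The first and rate-limiting step joins glycine and succinyl-CoA and is run by Alas1 in most tissues and by Alas2 in red cell precursors. Alad, Uros and Urod build and trim the ring in the cytosol, Cpox and Ppox oxidise it at the mitochondrion, and Fech inserts the iron. Hmox1 opens the ring again and yields biliverdin, carbon monoxide and iron. At this stage the liver is a blood-forming organ, where large numbers of red cell precursors lie among immature hepatocytes and around macrophages. In whole tissue, fewer cells of a type and less RNA per cell cannot be told apart.

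Promoter sequence is shown for 3 of the members, because in the 250 bases before a start site they held the letters GATAA or the reverse complement TTATC, the core of the site bound by GATA factors of red cell precursors. Uros is shown at both of its listed starts because few junction reads, described further on, came from its annotated first exons. Sequences are from RefSeq on GRCm38.p6, which lists 10 starts for 7 of the members, and each runs 5′ to 3′ on the strand of the gene with GATAA or TTATC in capitals. The Alas2 stretch is chrX:150547167-150547416 on the plus strand, the Cpox stretch is chr16:58669958-58670207 on the plus strand, and the Uros stretches are chr7:133702501-133702750 (internal start) and chr7:133709296-133709545 (upstream start) on the minus strand.
Alas2: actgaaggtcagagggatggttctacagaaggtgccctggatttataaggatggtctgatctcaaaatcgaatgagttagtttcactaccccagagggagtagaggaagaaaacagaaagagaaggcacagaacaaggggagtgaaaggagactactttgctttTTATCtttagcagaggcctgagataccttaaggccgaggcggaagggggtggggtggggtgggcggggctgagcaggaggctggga
Cpox: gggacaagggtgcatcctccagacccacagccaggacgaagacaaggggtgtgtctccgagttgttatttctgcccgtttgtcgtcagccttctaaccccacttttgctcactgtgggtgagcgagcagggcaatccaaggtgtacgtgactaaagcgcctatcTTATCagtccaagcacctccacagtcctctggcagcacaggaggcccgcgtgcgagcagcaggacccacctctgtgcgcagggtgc
Uros, internal start: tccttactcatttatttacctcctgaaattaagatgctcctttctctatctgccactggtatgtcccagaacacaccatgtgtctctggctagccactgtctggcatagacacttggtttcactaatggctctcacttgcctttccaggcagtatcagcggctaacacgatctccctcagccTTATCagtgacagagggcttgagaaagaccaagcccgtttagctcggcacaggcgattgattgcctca
Uros, upstream start: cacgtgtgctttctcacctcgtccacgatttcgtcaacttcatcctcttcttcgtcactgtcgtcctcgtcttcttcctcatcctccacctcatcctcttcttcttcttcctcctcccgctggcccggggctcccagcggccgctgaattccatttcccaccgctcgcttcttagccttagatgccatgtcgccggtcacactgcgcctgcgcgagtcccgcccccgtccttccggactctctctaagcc
The match began 86 bases before the RefSeq start in Alas2, 86 bases before it in Cpox and 68 bases before it at the internal start of Uros. The upstream start of Uros held none. GENCODE places the start of Cpox downstream of the RefSeq start and that of Alas2 upstream of it. The equal distance in these genes therefore holds for the RefSeq starts only. GATAA, searched on both strands, was in the 250 bases of 3 of the 10 starts of the members, or 30%, and of 22.6% of all 32851 starts. A second motif, CCNCNCCC, which holds the CACCC-like core bound by Klf1, was in 6 of the 10 starts, or 60%, and in 45.9% of all starts. In Alas2 it had 4 overlapping or neighbouring matches, which began 42, 40, 35 and 26 bases before the start and did not overlap the GATAA match. GENCODE places the start of Alas2 42 bases upstream of the RefSeq start used here, so by GENCODE these 4 matches lie in the leader and not before the start. A match here is a description of the letters and not of binding.

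A pair of short stretches of Alas2 bear on how its messenger is regulated and spliced. The leader of Alas2 holds an iron-responsive element, a hairpin whose loop is bound by iron regulatory proteins when iron is scarce. Of the 126 bases of the leader, counted from the GENCODE start, bases 82 to 111, at chrX:150547456-150547485 of GRCm38 on the plus strand, hold its loop letters in capitals. The other stretch is the first 45 bases of the third exon in its longer form, at chrX:150552959-150553003, in capitals between 12 bases of the exons on each side. These 45 bases are coding, and transcripts that use the later splice site lack them.
Alas2 leader: ctttggttcgtcctCAGTGCagggcaacag
Alas2 exon stretch: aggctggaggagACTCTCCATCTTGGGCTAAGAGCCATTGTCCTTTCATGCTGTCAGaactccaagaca

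At the entry step Alas2 was far above Alas1. Alas1, the housekeeping form, was at 14.8 TPM in replicate 1 and at 17.9 TPM in replicate 2, the lowest level of the 9 genes. Alas2, the erythroid form, was at 847 TPM in replicate 1 and at 941 TPM in replicate 2, the highest of them. Both libraries therefore gave the same order, and the levels did not overlap. The ratio of Alas2 to Alas1 in TPM was 57.4-fold in replicate 1 and 52.7-fold in replicate 2, or 5.78 ± 0.088 on the log2 scale (SD, n = 2). Alas2 is at chrX:150547375-150570638 on the plus strand, inside the span of Apex2 on the opposite strand, which was at 7.42 and 9.1 TPM. Alas1 is at chr9:106233455-106248654 on the minus strand.

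The cytosolic steps were led by Urod. Alad, which joins a pair of precursor molecules into a ring, was at 225 TPM in replicate 1 and at 271 TPM in replicate 2. Uros, which closes the larger ring, was at 140.1 and 159 TPM. Urod, which removes carboxyl groups from its side chains, was at 375 and 417 TPM. Urod stood above Alad in both libraries, by 1.60-fold in the mean, and Alad stood above Uros in both. The genes are at chr4:62509169-62519918 (Alad), chr7:133686243-133710072 (Uros) and chr4:116989965-116994413 (Urod), all on the minus strand, and Uros shares 740 bases at its 5′ end with Bccip on the opposite strand.

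Of the mitochondrial steps, Cpox and Fech lay close to Alad and Ppox lay lower. Cpox, the first oxidase, was at 221 TPM in replicate 1 and at 245 TPM in replicate 2. Ppox, the second oxidase, was at 136 and 159 TPM. Fech, the ferrochelatase, was at 217 and 266 TPM. The ranges of Alad, Fech and Cpox overlapped, and Cpox was above Fech in replicate 1 and below it in replicate 2. Uros and Ppox likewise could not be ordered, since Uros was the higher in replicate 1 and Ppox in replicate 2. Cpox is at chr16:58670292-58717636 on the plus strand, Ppox at chr1:171275990-171281186 and Fech at chr18:64452914-64490251, both on the minus strand. Ppox overlaps B4galt3 on the opposite strand by 907 bases.

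Hmox1, the inducible heme oxygenase, was at 57.1 TPM in replicate 1 and at 86.3 TPM in replicate 2, below all members but Alas1. It lies at chr8:75093621-75100589 on the plus strand. Hmox2, the constitutive heme oxygenase, was at 19.8 and 21.8 TPM, so that the ratio of Hmox1 to Hmox2 was 2.89-fold in replicate 1 and 3.95-fold in replicate 2. Of the enzymes that reduce biliverdin, Blvra was at 23.9 and 28.3 TPM, and Blvrb was at 601 and 597 TPM. Blvrb was 25.1-fold above Blvra in replicate 1 and 21.1-fold in replicate 2. Blvrb, also known as flavin reductase, is abundant in red cells and was above every member but Alas2.

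Read from top to bottom, the order of levels was Alas2, Urod, then Alad, Fech and Cpox, then Uros and Ppox, then Hmox1 and Alas1. Neighbours in that order whose ranges over both libraries did not overlap were Alas2 and Urod, Urod and Alad, Cpox and Uros, Ppox and Hmox1, and Hmox1 and Alas1. Among all protein-coding genes, Alas2 was at percentile 99.6 and Urod at percentile 99.2 of mean TPM, the other synthesis genes apart from Alas1 lay between percentiles 98.0 and 98.9, Hmox1 was at 95.9 and Alas1 at 83.1. The 9 genes together made up 0.223% of all TPM in replicate 1 and at 0.256% in replicate 2.

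**Figure D1:**
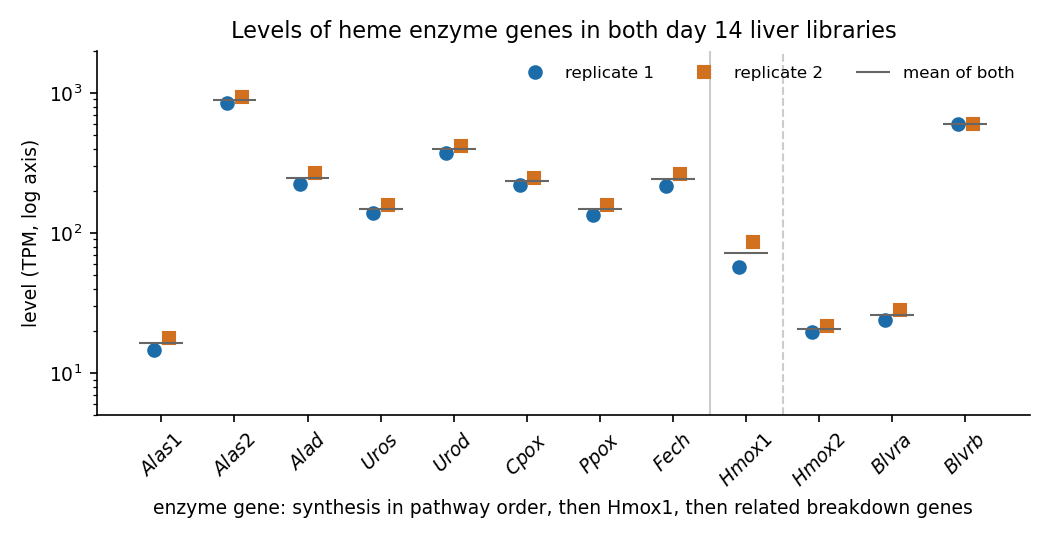
Levels in TPM on a log axis for the 9 members in pathway order and for Hmox2, Blvra and Blvrb, with a circle for replicate 1, a square for replicate 2 and a line at their mean. Alas2 at 847 and 941 TPM and Alas1 at 14.8 and 17.9 TPM are the extremes among the members, and the breakdown enzymes span from Hmox2 at 19.8 and 21.8 TPM to Blvrb at 601 and 597 TPM.

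The older mm9 gene table of the same experiment gave RPKM in a first and a second replicate column that it does not tie to the named libraries. Alas2 was again the highest of the 9, at 178 and 212 RPKM, and Alas1 the lowest, at 4.53 and 5.36 RPKM. Fech stood above Urod there, at 76.6 and 94.5 RPKM against 63.6 and 70.2 RPKM, and Cpox was at 46.2 and 57.7 RPKM. Alad was below Ppox there, at 27.9 and 32.9 RPKM against 37.1 and 47.8 RPKM, while in TPM it was above. Of the 36 pairs of members, 31 had the same order in both tables. Hmox1, at 14.0 and 12.7 RPKM, was listed lower in the second column and the other 8 members higher. The columns may not follow the replicate numbers: the 6 skeletal muscle markers, which were higher in replicate 1 in TPM, were all higher in the second RPKM column, with sums of 0.321 and 7.94 RPKM. No direction between the named libraries is read from this table.

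The replicate libraries were then compared gene by gene, with a two-sided exact binomial test on rounded expected counts after scaling by the trimmed mean of M values (TMM), adjusted over all genes with at least 10 counts. This test compares these 2 libraries and takes counting error as the only error. By it, 40.3% of all 18572 genes tested differed at an adjusted p under 0.05, and 19.9% were higher in replicate 2. The test calls smaller differences at higher counts, and 47.0% differed when only genes with at least 100 counts in total were tested. Each member had at least 3723 expected counts in each library, and the part of depth in the calls was not tested. Of the 9 members, 7 were higher in replicate 2, 2 were not called and none was higher in replicate 1. Their median log2 ratio of replicate 2 to replicate 1 was 0.087, and it was -0.00052 over all genes tested. A negative binomial exact test in edgeR, whose dispersion (a coefficient of variation of 0.191) comes from the pair itself, called 0 of the 9 members, with 0 at an unadjusted p under 0.05, and 2.54% of all genes.

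Hmox1 differed most. Its expected counts were 9744 in replicate 1 and 21270 in replicate 2, a log2 ratio of 0.45 after scaling (95% interval 0.42 to 0.49, exact binomial adjusted p = 1.33e-146). Under the negative binomial exact test Hmox1 had an unadjusted p of 0.25. Fech followed with 72273 and 128030 expected counts and a log2 ratio of 0.15 (0.14 to 0.16). Alad, at 28934 and 50147 expected counts, had a log2 ratio of 0.12 (0.097 to 0.14), and Alas2, at 129102 and 222957, one of 0.11 (0.10 to 0.12). The ratios of Uros, Urod and Ppox were 0.087, 0.060 and 0.054. Alas1 had a log2 ratio of 0.039 with an interval from -0.020 to 0.098 (exact binomial adjusted p = 0.315), and Cpox one of 0.0062 with an interval from -0.0065 to 0.019 (exact binomial adjusted p = 0.485). The interval of Cpox is narrow because it rests on 81521 and 130777 expected counts.

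**Figure D2:**
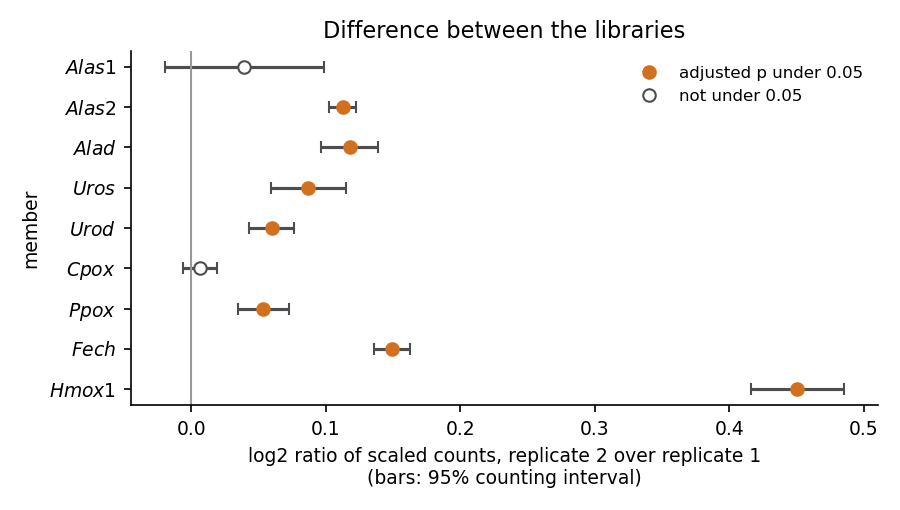
Log2 ratio of scaled counts, replicate 2 over replicate 1, for each member, with 95% counting intervals as bars. Filled points have an exact binomial adjusted p under 0.05 and open points, Alas1 and Cpox, do not; Hmox1 at 0.45 stands to the right of the other members, which lie between 0.0062 and 0.15.

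Scaling touched these calls. When library totals replaced TMM, all 9 members were called higher in replicate 2, and 67.2% of all calls were higher in replicate 2 against 49.3% with TMM. Unscaled TPM was higher in replicate 2 for each of the 9, where the median of genes with at least 100 counts was itself 0.15 higher on the log2 scale.

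Markers of other cells moved between the libraries as well, by the exact binomial test. Beside their counts, 40.3% of all genes tested were called and 19.9% were higher in replicate 2. The 6 skeletal muscle markers were all higher in replicate 1, with summed levels of 34.9 and 2.14 TPM, and Ttn was at 0.29 and 0.01 TPM. Of 8 macrophage markers, 6 were higher in replicate 2 and 2 were not called, their levels summed to 156 and 202 TPM, and their median log2 ratio was 0.31. Cd163 was near 0 in both, at 0.02 and 0.03 TPM. All 10 erythroid markers were higher in replicate 2, by a median log2 ratio of 0.092, and summed to 2016 and 2360 TPM. Of 8 fetal hepatocyte markers, 7 were higher in replicate 2 and Fgb was higher in replicate 1, and they summed to 20754 and 23771 TPM. The part of these cell types in the ratios of Hmox1 and the other members was not tested. Each hepatocyte and erythroid marker was detected in both libraries, at a mean of at least 20.3 TPM.

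Exon junctions came from the older mm9 list, which gives the reads of a first and a second replicate column over each junction and marks whether the junction was in ENSEMBL release 65. It holds only junctions with at least 1 read, so a junction without reads is not listed. The list has 1024689 junctions, and 41.4% of all reads were in the first column. The 9 genes carried 928183 junction reads, from 7216 in Alas1 to 271966 in Alas2. In each of the 9 the first column held a smaller part than in the list as a whole, from 32.1% in Hmox1 to 38.9% in Cpox. These columns are not tied to the named libraries either. Hmox1 was higher in the first RPKM column, so the first and second columns here may not be the same libraries as those of the RPKM values. Of the 81 introns of the longest annotated models, 80 were listed, and the first one of Hmox1 was not.

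Most reads into the second exon of Alad came from a donor outside the annotation. This exon was entered by 17676 reads. Of these, 15027 (5573 in the first column and 9454 in the second) came from a donor that ENSEMBL did not list, over an intron of 2353 bases at chr4:62175295-62177647 of mm9. The annotated first introns, of 5599 and 5534 bases, had 2557 and 47 reads. The unlisted donor thus held 85.0% of the reads (exact interval 84.5% to 85.5%) and 85.0% in each of the columns. It lies 3246 bases downstream of the end of the annotated first exon. No intron of Alad in GENCODE M21 has its length, and both RefSeq starts of Alad lie upstream of the annotated first intron. Alad is known to have a housekeeping promoter and, downstream of it, an erythroid one, each with its own noncoding first exon.

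The transcript table divides Alad between 3 models, and none of their introns has that length. It gave Alad-201, whose first intron is the annotated one of 5599 bases, 89.4% of the TPM of the gene in replicate 1 and 90.6% in replicate 2. Reads over both annotated first introns came to 20.98% of those over the next intron, which had 12412 reads. With the unlisted donor included, the reads into the second exon exceeded those over the next intron, at 142%.

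Uros also had few reads from its annotated first exons. From 4 donors, 383 reads entered its second exon at chr7:140894153 of mm9, of which 280 came from the donor of the longest model. The next intron of 407 bases had 3666 reads, so that the reads into the second exon came to 10.4% of it, 9.39% in the first column and 11.1% in the second. The other introns of the longest model carried from 2383 to 6387 reads. The internal RefSeq start of Uros, with the TTATC printed above, lies 31 bases upstream of the second exon and 6795 bases downstream of the other RefSeq start. Of the deposited contigs, stretches of continuous signal, the sense contig with the second exon had a level of 10.3 and the one over the first exons a level of 1.13. An antisense contig over the first exons, on the strand of Bccip, had a level of 5.92. Uros is known, like Alad, to have an erythroid promoter behind its first exon.

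Most of the counts of Uros were assigned to a transcript whose first intron was not listed. Uros-204, with a first exon of 35 bases and a second exon that lacks the first 50 bases of the usual one, held 41.8% of the TPM of Uros in replicate 1 and 42.6% in replicate 2, and 57.2% and 56.4% of its expected counts. The intron of 6504 bases that defines it had no entry in the junction list. Uros-209, an annotated transcript of 371 bases that starts within the annotated first intron, was given 35.5% and 33.97% of the TPM but 5.91% and 5.37% of the expected counts. Uros-201, the full-length form of 1762 bases, held 1.2% and 1.16% of the TPM.

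The first introns of Fech and Hmox1 were also set against the later ones. The first exon of Fech was joined to the second by 2545 reads and directly to the third by 273, 9.66% of the reads from its donor. Together, these reads out of the first exon were set against the reads into the third exon from the first or second. The ratio was 24.3%, 28.0% in the first column and 22.1% in the second. It is not a part of a whole, since the 2545 reads do not themselves enter the third exon. A single transcript model is given for Fech. In Hmox1, the annotated first intron of 2083 bases was not listed, while an intron of the same length, displaced by 4 bases at both ends, had 1605 reads (574 and 1031). That is 40.7% of the median of the other 3 introns, which had 3175, 3945 and 7435 reads from 5′ to 3′. The list marks this junction as outside the annotation, and a further mark of the list, C, whose meaning is not given, is 0 for it. Whether the displaced intron is the annotated splice placed 4 bases away was not tested, so no other first exon is read from it.

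Few reads at the first intron are common in this list. Over 7327 ENSEMBL genes with at least 4 introns and a median of at least 100 reads over the introns after the first, the first intron of the longest model had a median of 66.5% of that median, with quartiles of 37.3% and 101%. Alas2 at 63.5% and Urod at 62.1% were close to the median gene. Uros was at 7.46%, Alad at 20.96% and Fech at 22.5%, and 10.8%, 15.8% and 16.5% of genes were at or below these values. Alas1, at 206%, Cpox, at 180.1%, and Ppox, at 131%, had more reads at the first intron than the median of the later ones. Of all these genes, 96.4%, 94.96% and 86.8% were at or below them. In Ppox the first intron, with 6966 reads, was still below introns 9, 11 and 12, with 8309, 7954 and 7137 reads. 

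**Figure D3:**
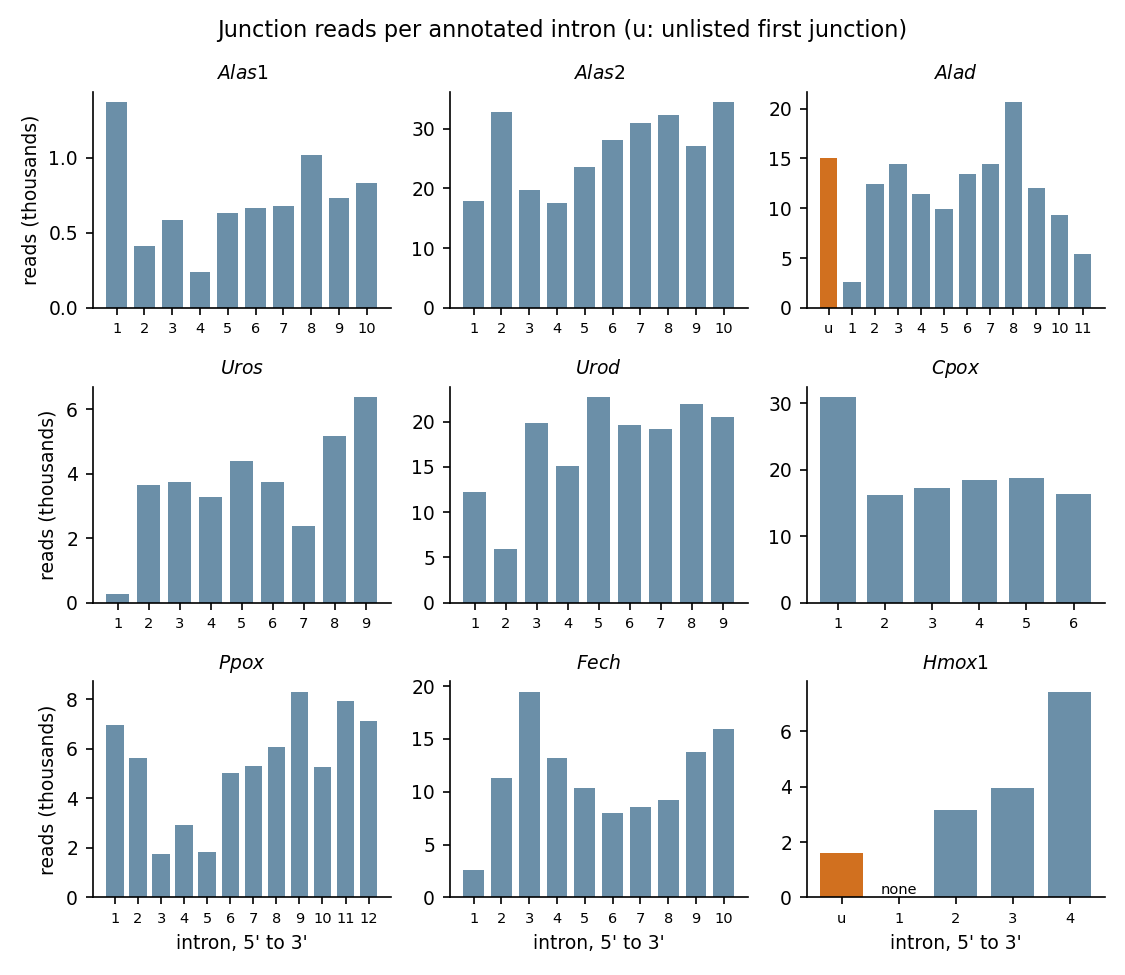
Junction reads for each annotated intron of the longest model, from 5′ to 3′, with both replicate columns summed and an own scale in each panel. The bar marked u is the unlisted first junction of Alad (15027 reads) and the displaced one of Hmox1 (1605 reads); the annotated first intron has 2557 reads in Alad, 280 in Uros and none in Hmox1.

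Alternative splice sites held similar parts in both columns. In Alas2, the donor of the second exon joined the earlier acceptor, which keeps the 45 bases printed above, in 32749 reads and the later one in 4902. Of both, the later acceptor had 13.0% in the first column and 13.0% in the second. The transcript table gave the form without the 45 bases a larger part. Alas2-202, which lacks them, was at 142 and 169 TPM and Alas2-201 at 381 and 473 TPM, so that Alas2-202 held 27.1% and 26.4% of both. In the third intron of Ppox, an acceptor outside the annotation took 329 of 2186 reads from the donor, 15.1%, and the annotated acceptor 1733. In Uros, 247 reads joined the sixth donor to an alternative acceptor, 6.18% of the reads of both.

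**Figure D4:**
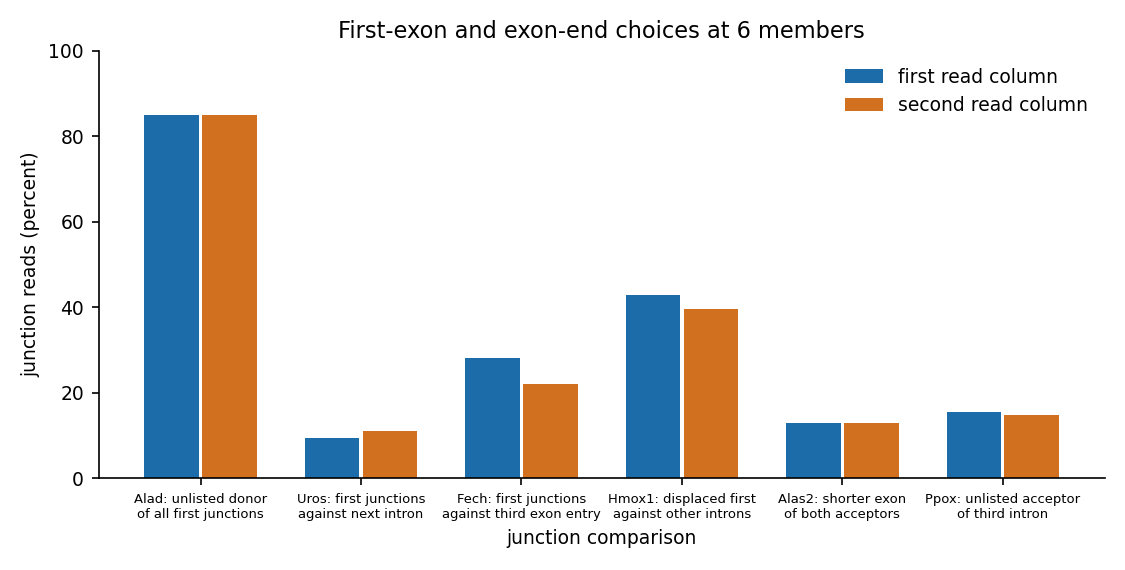
Junction reads in percent at 6 members, with 1 bar for the first and 1 for the second replicate column, each against the reference named under it. The unlisted donor of Alad is at 85.0% in both columns, the first junctions of Uros are at 9.39% and 11.1% of the next intron, and the later Alas2 acceptor is at 13.0% in both.

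Junctions outside the annotation were rare in most of the genes. They held 2.70% of the junction reads of the 9 genes (exact interval 2.67% to 2.73%) and 15.4% of the reads of the whole list. The whole list is not limited to junctions within genes, and the same share within all genes was not computed. Alad had 11.2%, with 15027 of its 15882 such reads at the unlisted donor, and Hmox1 had 10.3%, with 1605 of 1671 at the displaced intron, and the other 7 genes had between 0.342% in Urod and 2.76% in Ppox.

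The transcript with the highest share of TPM held from 37.5% to 100% of its gene. Cpox and Fech each had 1 model. Hmox1-201 held 98.7% of Hmox1 in replicate 1 and 98.6% in replicate 2, and Urod-201 held 67.4% and 71.5% of Urod. Alas2-201, the full-length coding form, held 45.04% and 50.2% of Alas2, because Alas2-204, an annotated processed transcript of 569 bases from the 3′ end, was given 32.1% and 26.0%. By expected counts Alas2-204 held 9.20% and 6.87%, since a short model turns few counts into a high TPM.

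In Ppox, models that keep introns held much of the level. Models without a coding label held 58.1% of its TPM in replicate 1 and at 54.4% in replicate 2. Ppox-207, a retained-intron model of 4411 bases, held 46.8% and 43.8% of its expected counts, more than the coding Ppox-201 at 30.7% and 33.8%. By TPM, which divides by length, the order was the reverse. Ppox-201, of 1821 bases, held 40.9% and 44.0%, and Ppox-207 held 23.8% and 21.7%. By intron length, Ppox-207 lacks introns 3, 4, 5, 7 and 10 of the longest model. Introns 3, 4 and 5 had 1733, 2903 and 1837 junction reads, against 5040 over intron 6 and 8309 over intron 9, which it splices. Introns 7 and 10, at 5304 and 5267 reads, had more than intron 6, so the junctions do not mark these as kept. In Alas1, 2 coding models shared the lead in TPM. Alas1-201 held 36.2% and 38.9%, and Alas1-207 37.1% and 31.3%, so that their order in TPM changed between the libraries. By expected counts Alas1-207 led in both, at 48.3% and 43.6% against 33.97% and 39.01% for Alas1-201. The intron of 406 bases, which by length only Alas1-201 has, had no entry in the junction list. The form of 403 bases, which Alas1-207 shares with other models, had 677 reads. In Urod the non-coding models held 30.7% and 26.4% of the TPM, led by Urod-209, a retained-intron model, at 14.8% and 11.2%. By expected counts Urod-209 held 5.63% and 4.08%.

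**Figure D5:**
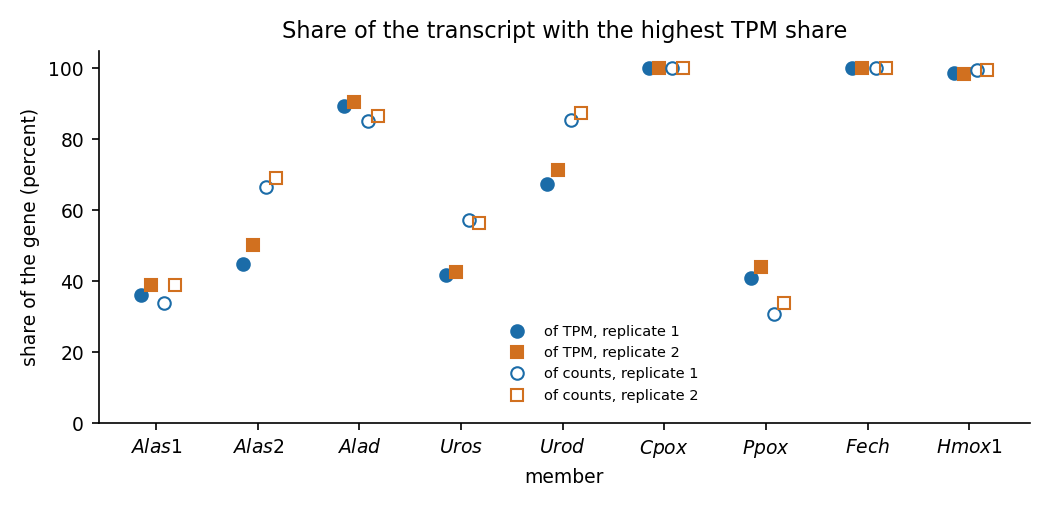
Share of the gene, in percent, held by the transcript with the highest mean TPM share, as filled points for TPM and open points for expected counts, with circles for replicate 1 and squares for replicate 2. The shares of Alas2, Uros and Urod are higher by counts than by TPM, and those of Alad and Ppox are lower. Cpox and Fech are at 100% with 1 model each.

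Genes that supply, carry or use heme were taken from a list of 30. Of these 21 were higher in replicate 2, 2 were higher in replicate 1 and 7 were not called by the exact binomial test. Their median log2 ratio was 0.10. Beside these counts and those of each group below, 40.3% of all genes tested were called and 19.9% were higher in replicate 2. Among 7 mitochondrial transport genes, 5 were higher in replicate 2 and 2 were not called. Slc25a37, the mitoferrin that brings iron into mitochondria of red cell precursors, was the highest at 366 TPM in replicate 1 and at 511 TPM in replicate 2, and its log2 ratio was 0.33. Tmem14c, a porphyrin transporter, was at 299.9 and 372 TPM, and Slc25a39, a mitochondrial glutathione carrier, at 131 and 152 TPM. Slc25a28, the other mitoferrin, was the lowest of them, at 10.3 and 10.7 TPM.

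Of 3 iron-sulfur cluster genes, 2 were higher in replicate 2 and Iscu was higher in replicate 1. Glrx5, which passes clusters on within mitochondria, was at 306 and 359 TPM, Iscu, the scaffold, at 59.9 and 60.4 TPM, and Nfs1, the cysteine desulfurase, at 36.0 and 41.1 TPM. Of 8 regulators, 7 were higher in replicate 2 and 1 was not called. Fam210b was at 47.2 and 59.9 TPM, Pgrmc1, which binds heme, at 42.0 and 51.9 TPM, and Eif2ak1, the heme-regulated kinase that restrains translation when heme is short, at 37.5 and 44.7 TPM. Bach1, the heme-sensitive repressor of Hmox1, was the lowest at 5.32 and 6.37 TPM.

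Of 6 genes of heme traffic, 4 were higher in replicate 2 and 2 were not called. Hpx, the plasma carrier hemopexin made by hepatocytes, was at 168 and 207 TPM, Abcg2, an exporter, at 57.6 and 71.5 TPM, and Slc48a1, which moves heme out of lysosomes, at 27.4 and 34.1 TPM. Flvcr2 was the lowest, at 2.27 and 2.76 TPM. Of the 3 further breakdown genes, Blvra was higher in replicate 2, Blvrb was higher in replicate 1 with a log2 ratio of -0.18, and Hmox2 was not called. The 7 called members were higher in replicate 2; the difference between them and Blvrb was not tested. Of 3 genes that use heme for respiratory proteins, Cox15, which makes heme a, was at 6.69 and 8.47 TPM. Hccs, which attaches heme to cytochrome c, was at 5.74 and 6.89 TPM, and Cox10, which makes heme o, at 4.57 and 4.48 TPM.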

How the data were processed

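RNA was measured by polyadenylated RNA sequencing of 2 libraries of mouse embryonic liver at day 14, 1 group, per the labels. The expected count and TPM values were deposited by the authors per gene and transcript, from mm10 with GENCODE M4, and the FPKM values were made by the authors beside them; which aligner and quantifier they used is not given in the sources used here. Transcript shares were deposited as a percent of the TPM of the gene. The score values are, per the file headers, bounds and posterior SDs of these estimates, and, in the mm9 lists, a deposited irreproducibility value read as such from its range. Junction counts were deposited as reads on mm9, the signal of each contig was deposited as 1 value over both replicates, on a scale not stated, and mm9 RPKM values were deposited in columns that name no library.

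The members and gene lists were chosen with earlier results of these data known. The genes named are all members, Hmox2, Blvra and Blvrb, and of each other heme-related group at most the 3 highest and the lowest. The single markers and overlapping genes named beside results were chosen after their values were seen. Some listed genes are not reported here and are left out of the counts. All 71 remaining symbols were matched by identifier; features other than mouse genes were set apart. Expected counts were rounded, scaled by TMM (edgeR 4.0.16) and compared with the exact binomial test (two-sided, conditional on a gene's total) with Benjamini-Hochberg adjustment at 0.05 over genes with at least 10 counts; edgeR gave the negative binomial exact test. Intervals are 95% Clopper-Pearson and cover counting error only. Introns on mm9 come from ENSEMBL 65 exons; no position was converted between builds, and introns were compared with GENCODE M21 by length. Longest models are those with the most introns. Simulated data were used to check the gene test. Alternatives were DESeq2 1.42.0 size factors, library totals, other filters, thresholds and units, and each replicate left out. R 4.3.3, Python 3.11.15, scipy 1.17.1, numpy 2.4.6, pandas 2.3.3 and matplotlib 3.10.9 were used.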

Additional observations from a re-analysis of the deposited data

How the results depend on the processing

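The median level of the 9 genes was 233 TPM; it read 279 as FPKM and 42.5 as mm9 RPKM, which are other units, and it ranged from 217 to 245 TPM with each replicate left out. The mean log2 ratio of Alas2 to Alas1, 5.78, was 5.30 in mm9 RPKM and from 5.72 to 5.84 with each replicate left out. The number of members called between the libraries, 7, was 9 with library totals and 0 with the negative binomial exact test, whose error is set by the differences of the same pair; it was 7 under the other 4 alternatives. The median share of the leading transcript, 69.5%, was 85.8% by expected counts and from 67.4% to 71.5% with each replicate left out. With junctions of at least 10 reads, the share of the unlisted donor of Alad was 85.1% in place of 85.0%, and that of junctions outside the annotation 2.37% in place of 2.70%. Among the 89 alternatives computed, the log2 ratios kept their sign. The count filters and the negative binomial exact test use the same counts and scaling as the main test. The sign of a member's ratio could therefore not change under them. No paired analysis was possible because the series has 1 group. Depth sets the wide interval of Alas1, the member with the fewest counts.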
